A study of Homo sapiens with 10 samples.

Results

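The genes described here are 46 genes of mitosis other than the kinesin motors of the KIF family, chosen by name, with earlier results of these data known, out of 23786 genes measured. They were found in the deposited table by their Entrez identifiers, and all 46 were measured. By role, they fall into 9 cyclins, kinases and a phosphatase that drive entry into mitosis, 5 genes of the spindle checkpoint, 11 of the kinetochore and centromere, 3 of the chromosomal passenger complex, 4 of condensin, 2 of chromosome structure, 4 of spindle assembly, 5 of cytokinesis and 3 other regulators. CENPE, in the kinetochore group, itself encodes a motor of the kinesin superfamily. The cells were MCF10A, an established, non-tumorigenic line from human breast epithelium. They received TGFβ1 at 10 ng/mL in growth medium and were profiled on whole-transcript Affymetrix arrays, with a single array for untreated cells, for 4 h and for each of days 1, 2, 3, 4, 5, 6, 8 and 12. By the methods of the study, treatments began at staggered times, serum was withheld before harvest, and all plates, untreated cells among them, were collected at once. It is not stated whether the RNA on an array came from 1 culture or from a pool, and no time point has a replicate. The question was how the programme of mitosis moves as these cells pass through an epithelial to mesenchymal transition, and whether its parts start to move at the same time.

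Mitosis begins when cyclin B activates the kinase CDK1. Condensin then compacts the chromosomes, kinetochores on the centromeres attach them to spindle microtubules, and the spindle checkpoint holds back the anaphase-promoting complex until each chromosome is attached. The chromosomal passenger complex corrects faulty attachments, and a contractile ring with a bundled spindle midzone then divides the cell. Most of these genes are transcribed periodically, with a peak in late G2 and mitosis. In resting cells the DREAM complex holds many of them down through a short promoter element, the cell cycle genes homology region or CHR, and in cycling cells B-MYB and FOXM1 act through the same element. TGFβ is known to arrest the growth of epithelial cells. In a bulk sample, a larger share of cells near mitosis and more RNA of these genes per cell cannot be told apart.

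Each array gave a log2 value per gene after robust multi-array averaging (RMA) by the authors, with array medians of 2.92 to 2.98. The untreated array stood apart, with a median absolute deviation from each gene's median over the arrays of 0.238, against 0.0994 to 0.162 in the others, so that results are also given without it where that matters. Of 12 mammary epithelial markers, 10 lay above the array's median gene on all 10 arrays. Above the median gene on no array were 4 of 5 endothelial markers (KDR was the exception) and 4 of 5 immune markers (all but CD14). Of 6 fibroblast markers, which are also genes of mesenchymal transition, 4 were above it on no array. The list's mean level was 2.30 to 2.79 on the early arrays and 3.01 to 3.08 on the late ones. Between these arrays DCN rose by 2.92, while the list's median difference was 0.01 and 3 of the 6 differences were above 0. The part of these markers in the results was not tested. For tests, arrays were joined in 3 windows, an early one of untreated cells, 4 h and day 1 (n = 3), a middle one of days 2, 3 and 4 (n = 3) and a late one of days 5, 6, 8 and 12 (n = 4). The p-values measure the spread between arrays taken at different times, which are not replicates of 1 condition, and precision is limited by how few arrays there are.

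The promoters of these genes were looked at for elements known from late cell cycle genes. RefSeq promoters (assembly GRCh38.p14, 250 bases before to 50 after a gene's start) matched 40 of the 46 genes, with 50 promoters in all, and AURKA, PBK, TTK, BIRC5, TPX2 and FOXM1 had none. Printed here are the promoters of the gene with the largest late minus early difference among the cyclins and kinases, the kinetochore genes, the condensin genes and the cytokinesis genes, since those are the groups whose onset is compared. Capitals mark matches, on either strand, to the CHR (TTTGAA or TTCGAA), the CCAAT box (CCAAT) or an E2F site (TTTCGCGC or TTTGGCGC), and none of these motifs contains another. On the minus strand the first CHR form reads TTCAAA and the CCAAT box ATTGG. All 4 genes lie on the plus strand. The CDK1 promoter, the first of 2 listed, is chr10:60778081-60778380, that of CENPF is chr1:214602945-214603244, that of NCAPG is chr4:17810729-17811028 and that of CEP55 is chr10:93496362-93496661.
CDK1: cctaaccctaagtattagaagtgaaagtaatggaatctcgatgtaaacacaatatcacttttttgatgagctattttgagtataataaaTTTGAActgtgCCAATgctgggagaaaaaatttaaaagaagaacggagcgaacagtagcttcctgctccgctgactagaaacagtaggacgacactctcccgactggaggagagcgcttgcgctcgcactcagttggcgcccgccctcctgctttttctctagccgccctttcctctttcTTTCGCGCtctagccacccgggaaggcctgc
CENPF: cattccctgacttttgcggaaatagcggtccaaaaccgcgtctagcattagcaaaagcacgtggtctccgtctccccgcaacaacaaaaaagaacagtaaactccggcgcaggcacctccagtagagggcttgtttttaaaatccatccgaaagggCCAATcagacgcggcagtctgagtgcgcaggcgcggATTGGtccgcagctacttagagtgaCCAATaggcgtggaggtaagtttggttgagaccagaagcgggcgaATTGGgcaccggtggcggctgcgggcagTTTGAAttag
NCAPG: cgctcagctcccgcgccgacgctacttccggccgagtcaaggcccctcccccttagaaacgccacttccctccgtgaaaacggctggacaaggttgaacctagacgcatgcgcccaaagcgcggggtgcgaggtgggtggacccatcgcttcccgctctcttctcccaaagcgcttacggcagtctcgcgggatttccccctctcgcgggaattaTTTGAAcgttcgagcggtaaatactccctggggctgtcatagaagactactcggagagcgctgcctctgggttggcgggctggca
CEP55: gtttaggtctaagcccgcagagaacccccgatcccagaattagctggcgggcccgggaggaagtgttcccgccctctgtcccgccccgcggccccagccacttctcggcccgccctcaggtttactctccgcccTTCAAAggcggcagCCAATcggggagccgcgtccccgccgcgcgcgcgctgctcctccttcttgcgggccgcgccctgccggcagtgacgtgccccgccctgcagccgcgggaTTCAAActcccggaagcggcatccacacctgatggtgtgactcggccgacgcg
The CDK1 sequence holds a CHR match that begins 161 bases before the start, a CCAAT box 150 bases before it and an E2F match in the bases after it. In the CENPF sequence, 3 CCAAT boxes on alternating strands begin 94, 58 and 33 bases before the start, and another CCAAT box and a CHR match lie after it. NCAPG has a single CHR match, 35 bases before the start, and no CCAAT box in this window. CEP55 has CHR matches on the minus strand 116 and 3 bases before the start and a CCAAT box 102 bases before it.

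Over all members with a promoter, a CHR match was found in 31 of 40 genes (77.5%), against 19.54% of the 27305 genes in the promoter table. CCAAT boxes were found in 29 of the 40 (72.5%), against 39.72% of all genes, and both in 1 promoter in 22 (55.0%), against 7.85%. At least 2 CCAAT boxes in 1 promoter were found in 18 genes (45.0%), against 12.91%. The E2F letters were rare on both sides, with 1 gene, CDK1, among the members (2.5%) and 1.40% of all genes. Counted by promoter, 34 of the members' 50 held a CHR match, or 68.0%, against 16.35% of 35116. The 9 members with a promoter and no CHR match in this window were CCNA2, CCNB1, NEK2, CENPE, CENPI, SGO2, AURKB, NCAPH and DIAPH3. By role, a CHR match was present in 4 of 4 checkpoint genes, 8 of 11 kinetochore genes, 3 of 4 condensin genes, 4 of 5 cytokinesis genes and 4 of 7 cyclin and kinase genes, while CCAAT boxes were present in 7 of those 7 and in 1 of the 4 condensin genes. Of the members' 48 CHR matches, 30 lay within 40 bases on either side of the start, and of their 65 CCAAT boxes 41 lay between 100 and 20 bases before it, with matches shared by overlapping promoters of a gene counted in each. The median late minus early log2 difference was 2.29 for the 31 genes with a CHR match and 2.09 for the 9 without one, with ranges of 0.53 to 3.33 and 1.24 to 3.06 that overlap. A match is a run of letters and not a shown binding site.

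**Figure D1:**
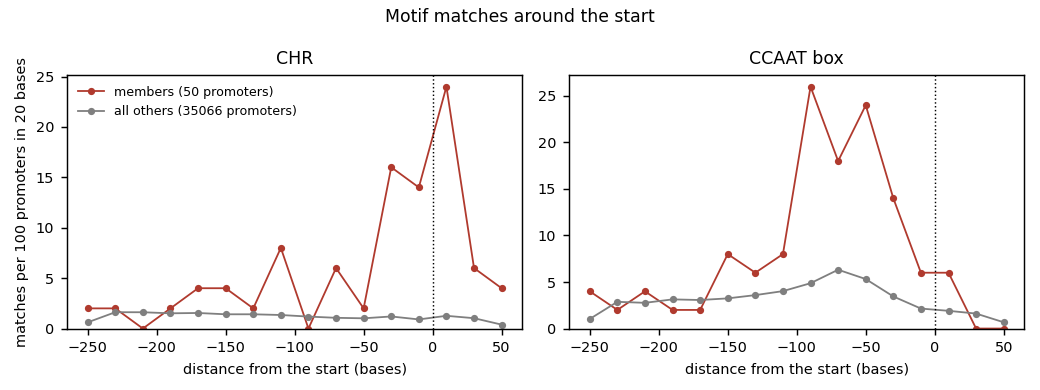
Matches to the CHR and the CCAAT box per 100 promoters, in bins of 20 bases by distance from the gene's start in bases (the outermost bins hold fewer positions), for the members' 50 promoters and the 35066 others. The members' CHR matches peak in the bin just after the start, with 12 matches, and their CCAAT boxes in the bin that begins 100 bases before it, with 13.

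The 46 genes were for the most part lowest on the first 3 arrays, went up between day 1 and day 2, held on day 3, and went up again until day 8. The median of their log2 values was 3.05 in untreated cells, 2.79 at 4 h and 2.87 on day 1, then 3.63, 3.56 and 4.27 on days 2, 3 and 4, and 4.89, 5.24, 5.49 and 5.41 on days 5, 6, 8 and 12. Of the 46, 23 lay below the array's median gene in untreated cells, 25 at 4 h and 24 on day 1, against 8 on day 2, 4 on day 5, 1 on day 8 and 0 on day 12. Every member had its highest value on day 6 (11 genes), day 8 (17) or day 12 (18). The lowest value lay at 4 h for 28 genes, on day 1 for 10, in untreated cells for 6, and on days 2 and 3 for 1 gene each. How the highest and lowest values of all genes are spread over the arrays was not counted.

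**Figure D2:**
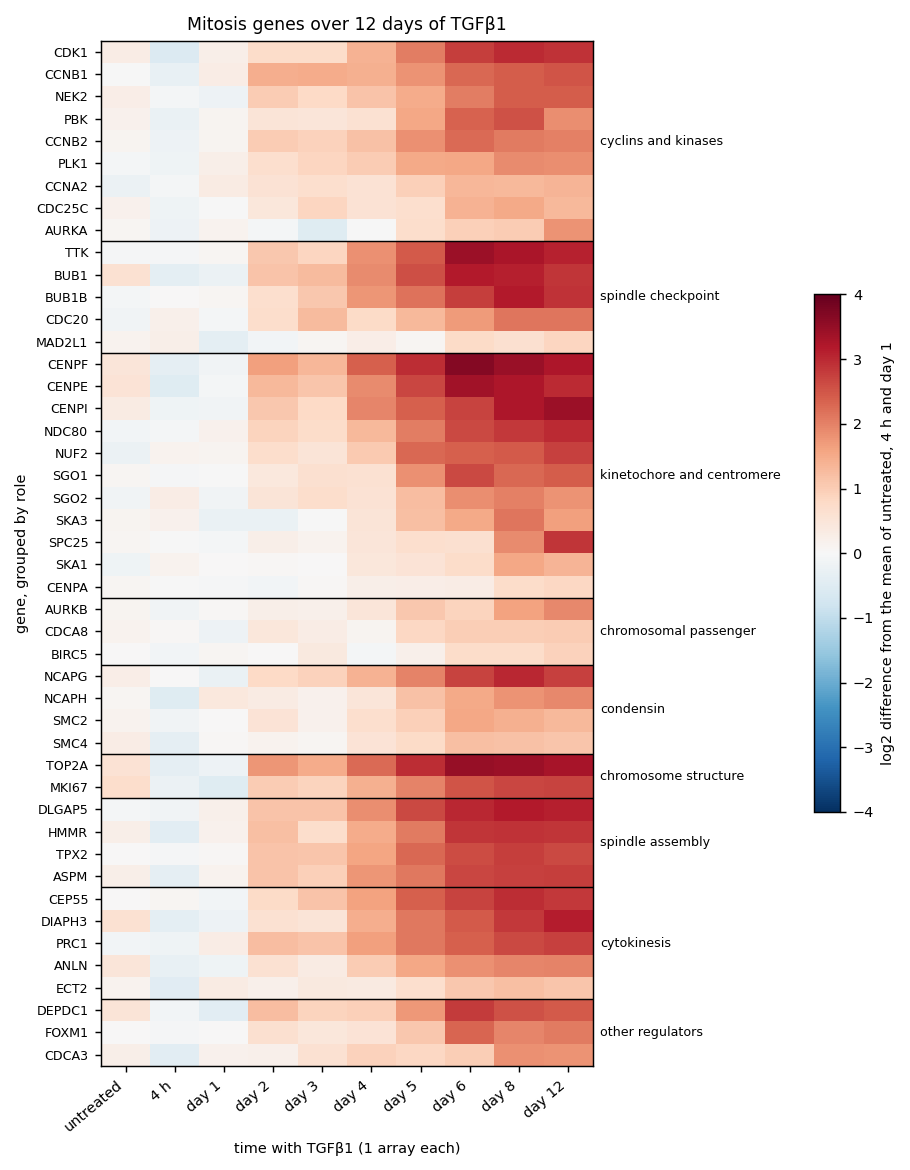
Log2 difference of each of the 46 genes (rows, grouped by role) from its mean over the early window, on each of the 10 arrays (columns, in time order). In the first 3 columns the median over the genes lies between -0.14 and 0.11, and it goes from 0.68 on day 2 to 1.64 on day 5 and 2.41 on day 12.

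Between the late and the early window, 42 of the 46 genes rose and 0 fell. A gene passed in limma when its log2 difference was 1 or more and its p, adjusted by Benjamini and Hochberg over the whole table, was 0.05 or less, which 2.92% of all genes did in the upward direction. The median difference of the members was 2.08, against -0.06 over all genes, and 46 of 46 were above 0. For 45 of the 46, each late array lay above each early array, as for 10.8% of all genes, and MAD2L1 was the exception. The 4 that did not pass were CDCA8 at 0.96 (SE 0.12; limma, adjusted p = 0.000471), BIRC5 at 0.65 (SE 0.18; limma, adjusted p = 0.0285), MAD2L1 at 0.58 (SE 0.21; limma, adjusted p = 0.0813) and CENPA at 0.53 (SE 0.16; limma, adjusted p = 0.0434), of which only MAD2L1 missed the limit on p. Leaving out 1 array at a time gave 39 to 42 genes, and leaving out the untreated array gave 41.

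**Figure D3:**
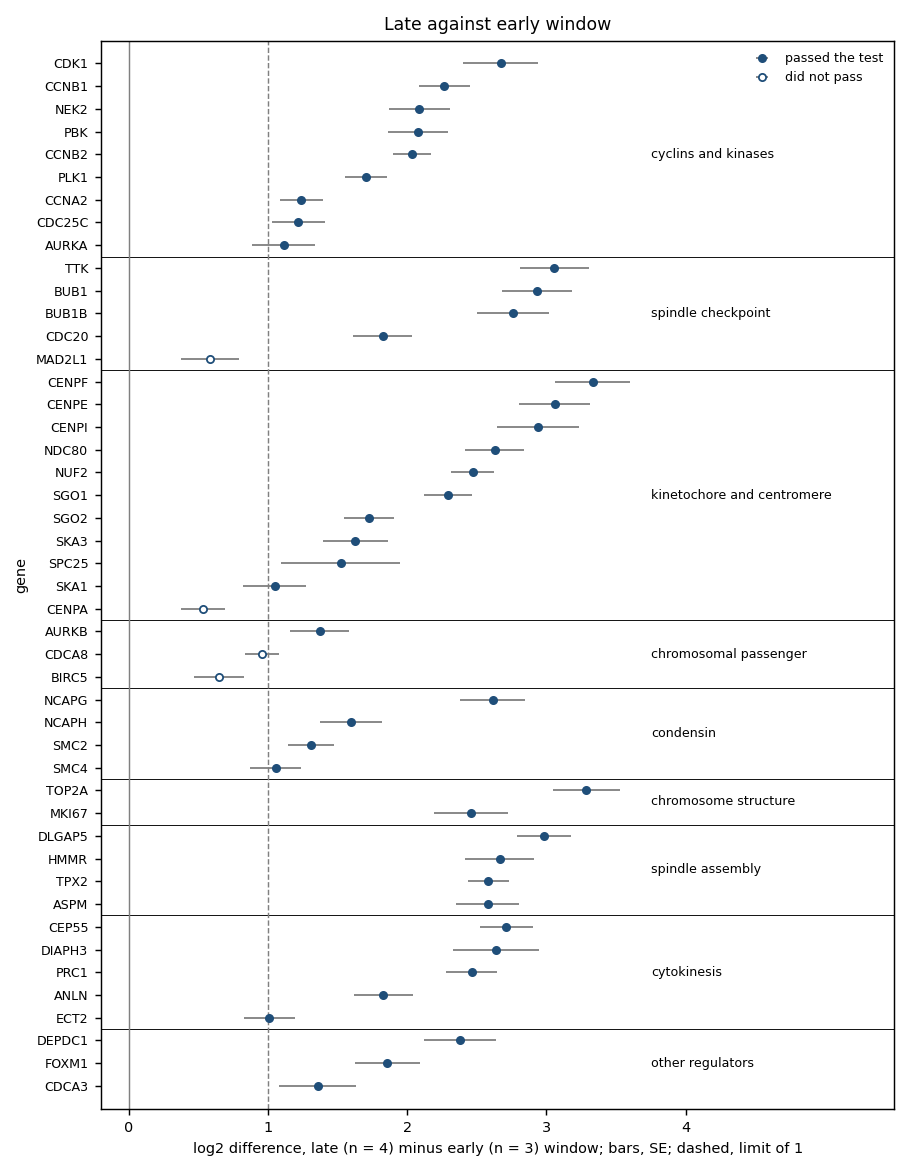
Log2 difference between the late window (n = 4 arrays) and the early window (n = 3) for each gene, by role, with its standard error. Filled points passed the test and open points did not, and the dashed line is the limit of 1. CENPF, at 3.33, and TOP2A, at 3.29, lie furthest to the right, and the 4 open points lie between 0.53 and 0.96.

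Among the cyclins and kinases, 9 of 9 rose, with a median log2 difference of 2.04. CDK1, the kinase that starts mitosis, read 2.76 in untreated cells, 1.93 at 4 h, 2.69 on day 1, 3.19, 3.18 and 3.86 on days 2, 3 and 4, and 4.52, 5.21, 5.44 and 5.35 on days 5, 6, 8 and 12. Its late values lay above all others, and its lowest was at 4 h. The difference was 2.67 (SE 0.27; limma, adjusted p = 0.000106), a fold of 6.37. Of its cyclin partners, CCNB1 rose by 2.27, CCNB2 by 2.04 and CCNA2, which also acts in S phase, by 1.24. CCNB1 was already at 5.04 on day 2, against 3.29 to 3.90 on the early arrays, and then held between 5.01 and 5.06 through day 4. NEK2, a kinase of centrosome separation, rose by 2.09, the mitotic kinase PBK by 2.08, PLK1, a kinase with roles from mitotic entry to cytokinesis, by 1.70, and CDC25C, a phosphatase that activates CDK1, by 1.22. AURKA, the kinase of the spindle poles, had the smallest difference of the group. It read 2.04 in untreated cells, 1.77 at 4 h, 2.11 on day 1, 1.89, 1.48 and 1.95 on days 2, 3 and 4, and 2.68, 2.91, 2.99 and 3.76 on days 5, 6, 8 and 12. The late arrays lay above all others, and the lowest value of all was on day 3. The difference of 1.11 (SE 0.23; limma, adjusted p = 0.00657) fell to 0.89 without day 12, below the limit.

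In the spindle checkpoint, 4 of 5 genes rose and the median difference was 2.76. TTK, the kinase that starts checkpoint signalling at kinetochores, read 2.48 in untreated cells, 2.47 at 4 h, 2.59 on day 1, 3.60, 3.38 and 4.34 on days 2, 3 and 4, and 4.97, 5.94, 5.78 and 5.58 on days 5, 6, 8 and 12. The early values lay close together, and each later array was higher than those. The difference was 3.06 (SE 0.25; limma, adjusted p = 2.97e-05), a fold of 8.32. BUB1 and BUB1B, checkpoint proteins that sit on the kinetochore, rose by 2.93 and 2.76, and CDC20, the activator that the checkpoint holds back, by 1.82. MAD2L1, which binds CDC20 directly, read 3.16 in untreated cells, 3.23 at 4 h, 2.61 on day 1, 2.90, 3.07 and 3.25 on days 2, 3 and 4, and 3.06, 3.76, 3.64 and 3.86 on days 5, 6, 8 and 12. Its day 5 value lay among the early ones, and the windows overlap.

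Of the kinetochore and centromere genes, 10 of 11 rose and the median difference was 2.29. CENPF, a large protein of the outer kinetochore, read 5.57 in untreated cells, 4.71 at 4 h, 4.94 on day 1, 6.70, 6.40 and 7.47 on days 2, 3 and 4, and 8.03, 8.76, 8.53 and 8.32 on days 5, 6, 8 and 12. Days 2 and 3 already lay above the early arrays, and day 6 was the highest. The window means were 5.07 ± 0.44 (SD, n = 3) and 8.41 ± 0.31 (SD, n = 4), with a difference of 3.33 (SE 0.27; limma, adjusted p = 2.97e-05), a fold of 10.1. The motor gene CENPE rose by 3.06 and CENPI, of the inner kinetochore, by 2.94. The shugoshins SGO1 and SGO2, which protect cohesin at centromeres, rose by 2.29 and 1.73. Within the NDC80 complex, which grips the microtubule, NDC80 rose by 2.63, NUF2 by 2.47 and SPC25 by 1.52, while their partner SPC24, named after its values were seen, stood at 0.34 (SE 0.15; limma, adjusted p = 0.15). SKA3 and SKA1, of a complex that couples kinetochores to shrinking microtubules, rose by 1.63 and 1.05. CENPA, the histone H3 variant that marks centromeres, moved least and read 3.81 in untreated cells, 3.71 at 4 h, 3.67 on day 1, 3.62, 3.79 and 3.98 on days 2, 3 and 4, and 4.00, 4.01, 4.47 and 4.56 on days 5, 6, 8 and 12. Its late values were all above the early ones, but by little on days 5 and 6. The calls for SPC25 and SKA1 each depended on single arrays. Without untreated cells, SPC25 kept a difference of 1.56 with an adjusted p of 0.070 in limma and SKA1 fell to 0.97, and without day 8 they were at 1.40 (limma, adjusted p = 0.089) and 0.88. SPC25 also missed the limit on p without 4 h (limma, adjusted p = 0.080) and without day 1 (limma, adjusted p = 0.069), and SKA1 stood at 0.94 without day 12.

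In the chromosomal passenger complex, 1 of 3 genes rose. AURKB, its kinase, read 4.10 in untreated cells, 3.86 at 4 h, 4.03 on day 1, 4.24, 4.21 and 4.47 on days 2, 3 and 4, and 5.07, 4.89, 5.60 and 5.90 on days 5, 6, 8 and 12. The late values were above all others, and the difference was 1.37 (SE 0.21; limma, adjusted p = 0.00134). BIRC5, which brings the complex to centromeres, read 2.11 in untreated cells, 1.97 at 4 h, 2.17 on day 1, 2.11, 2.49 and 1.99 on days 2, 3 and 4, and 2.28, 2.83, 2.81 and 3.00 on days 5, 6, 8 and 12. Day 5 lay just above the highest early value, and day 3 lay above day 5. CDCA8, a scaffold of the complex, was at 3.17 to 3.35 on the late arrays and 2.14 to 2.47 on the early ones, a gap that missed only the limit of 1. It passed at 1.02 without untreated cells. The fourth subunit, INCENP, from the list of other kinetochore genes and named after its values were seen, rose by 1.38 (SE 0.19; limma, adjusted p = 0.000701).

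All 4 condensin genes rose, with a median difference of 1.45. NCAPG, a subunit of condensin I, read 4.33 in untreated cells, 4.07 at 4 h, 3.79 on day 1, 4.85, 4.99 and 5.46 on days 2, 3 and 4, and 6.05, 6.78, 7.07 and 6.80 on days 5, 6, 8 and 12. It went up at each step from day 1 to day 8, with a difference of 2.61 (SE 0.23; limma, adjusted p = 5.43e-05). NCAPH, the kleisin that closes the condensin I ring, read 3.13 in untreated cells, 2.55 at 4 h, 3.45 on day 1, 3.37, 3.20 and 3.54 on days 2, 3 and 4, and 4.20, 4.56, 4.85 and 4.97 on days 5, 6, 8 and 12. Here day 1 was higher than days 2 and 3, and the clear rise came with day 5. The difference was 1.60 (SE 0.22; limma, adjusted p = 0.000739). SMC2, an ATPase shared by both condensins, read 4.25 in untreated cells, 3.98 at 4 h, 4.13 on day 1, 4.67, 4.30 and 4.80 on days 2, 3 and 4, and 5.08, 5.68, 5.55 and 5.40 on days 5, 6, 8 and 12. The difference was 1.31 (SE 0.17; limma, adjusted p = 0.000426), with days 5 to 12 above all other arrays. SMC4, its partner ATPase, read 6.29 in untreated cells, 5.61 at 4 h, 6.04 on day 1, 6.11, 6.07 and 6.54 on days 2, 3 and 4, and 6.75, 7.17, 7.14 and 7.07 on days 5, 6, 8 and 12. Days 2 and 3 lay below untreated cells, and the difference was 1.05 (SE 0.18; limma, adjusted p = 0.00246), which fell to 0.87 without the 4 h array.

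Both genes of chromosome structure rose. TOP2A, the topoisomerase that untangles sister chromatids, read 5.30 in untreated cells, 4.36 at 4 h, 4.54 on day 1, 6.50, 6.23 and 7.01 on days 2, 3 and 4, and 7.68, 8.21, 8.16 and 8.03 on days 5, 6, 8 and 12. It was lower at 4 h, was above untreated cells from day 2, and was highest on day 6. The difference was 3.29 (SE 0.24; limma, adjusted p = 1.68e-05), a fold of 9.77. MKI67, the proliferation marker that coats mitotic chromosomes, read 5.89 in untreated cells, 4.95 at 4 h, 4.71 on day 1, 6.19, 6.06 and 6.59 on days 2, 3 and 4, and 7.16, 7.68, 7.84 and 7.88 on days 5, 6, 8 and 12. Its lowest value was on day 1, and its day 2 and day 3 values were little above untreated cells. The difference was 2.46 (SE 0.27; limma, adjusted p = 0.000165).

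The 4 spindle assembly genes rose by similar amounts, 2.58 to 2.99. DLGAP5, which stabilises spindle microtubules, read 2.98 in untreated cells, 2.92 at 4 h, 3.26 on day 1, 4.19, 4.19 and 4.91 on days 2, 3 and 4, and 5.69, 6.07, 6.22 and 6.16 on days 5, 6, 8 and 12. It held the same value on days 2 and 3 and went up at each of the other steps from day 1 to day 8, with a difference of 2.99 (SE 0.19; limma, adjusted p = 1.21e-05). ASPM, a protein of the spindle poles, read 5.18 in untreated cells, 4.57 at 4 h, 5.07 on day 1, 6.09, 5.88 and 6.69 on days 2, 3 and 4, and 7.06, 7.62, 7.67 and 7.71 on days 5, 6, 8 and 12. It had the smallest difference of the group, 2.58 (SE 0.23; limma, adjusted p = 4.95e-05). TPX2, which activates AURKA on the spindle, rose by 2.58, and HMMR, a spindle-associated hyaluronan receptor, by 2.66.

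All 5 cytokinesis genes rose, with a median difference of 2.46. CEP55, which recruits the abscission machinery to the midbody, read 2.38 in untreated cells, 2.45 at 4 h, 2.24 on day 1, 3.13, 3.48 and 3.97 on days 2, 3 and 4, and 4.74, 5.05, 5.31 and 5.17 on days 5, 6, 8 and 12. Every array from day 2 on lay above the early ones. The difference was 2.71 (SE 0.19; limma, adjusted p = 1.62e-05), a fold of 6.55. DIAPH3, a formin that builds actin filaments, rose by 2.64, PRC1, which bundles the spindle midzone, by 2.46, and ANLN, the scaffold of the contractile ring, by 1.83. ECT2, the exchange factor that activates RHOA at the cell's equator, had the smallest difference of the 42 members that passed. It read 6.37 in untreated cells, 5.78 at 4 h, 6.55 on day 1, 6.43, 6.63 and 6.60 on days 2, 3 and 4, and 6.91, 7.30, 7.43 and 7.33 on days 5, 6, 8 and 12. The difference was 1.01 (SE 0.18; limma, adjusted p = 0.00344), just at the limit, and it fell below 1 without 4 h (0.78), day 6 (0.99), day 8 (0.95) or day 12 (0.98).

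The 3 other regulators rose as well. DEPDC1 read 2.72 in untreated cells, 2.09 at 4 h, 1.76 on day 1, 3.42, 3.08 and 3.14 on days 2, 3 and 4, and 3.92, 4.98, 4.75 and 4.65 on days 5, 6, 8 and 12. It was lower at 4 h and lowest on day 1, and highest on day 6, with a difference of 2.38 (SE 0.26; limma, adjusted p = 0.000165). CDCA3, a trigger of mitotic entry, read 3.85 in untreated cells, 3.20 at 4 h, 3.79 on day 1, 3.80, 4.22 and 4.52 on days 2, 3 and 4, and 4.43, 4.59, 5.43 and 5.42 on days 5, 6, 8 and 12. Its largest step lay between days 6 and 8, and the difference was 1.36 (SE 0.28; limma, adjusted p = 0.00665). FOXM1, the transcription factor of G2 and mitosis genes, stood at 2.42 to 2.48 on the early arrays, 2.91 to 3.09 in the middle window and 3.53, 4.78, 4.41 and 4.55 on the late ones. Its difference was 1.86 (SE 0.23; limma, adjusted p = 0.000403), and its largest step, 1.25, came between days 5 and 6.

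The first arrays were compared for an early fall. At 4 h, 36 of the 46 genes were lower than in untreated cells and 10 were higher, with a median difference of -0.27. Of all genes 46.4% were higher, with a median of -0.03. At least 1 log2 lower were 2 members, CENPE and DIAPH3, both at -1.02, as were 1.39% of all genes, and 0 were at least 1 log2 higher, as were 2.21% of all genes. On day 1, 28 members were lower and 18 were higher, with a median of -0.07. Of all genes 47.1% were higher then, with a median of -0.03. At least 1 log2 lower was 1 member, MKI67, at -1.18, against 1.82% of all genes, and 0 were at least 1 log2 higher, against 2.81%. With 1 array on each side no test can be made, and both comparisons use the untreated array, the one that differed most from the rest. From 4 h to day 1, 32 members went up, while 50.3% of all genes did, and the median step of the 46 was 0.17.

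Step by step, the largest early move was that from day 1 to day 2. Of the 46 genes, 41 went up, while 48.2% of all genes did, and the median step of the 46 was 0.65. Steps of at least 1 upward were seen in 14 members, the largest in TOP2A at 1.96, and in 337 of all 23786 genes. From day 2 to day 3, 29 members went down and 17 up, while 50.7% of all genes went up. The median step of the 46 was -0.04, with HMMR lowest at -0.50. From day 3 to day 4, 37 members went up (median step of the 46, 0.46), from day 4 to day 5, 44 did (0.57), and from day 5 to day 6, 44 did (0.47). Of all genes, 47.6%, 50.3% and 49.8% went up at these steps. From day 6 to day 8 the median step was 0.14. From day 8 to day 12 it was -0.01, with 20 members up and 26 down, and 50.9% of all genes up. At this last step PBK went down by 0.67 and SPC25 up by 0.97.

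**Figure D4:**
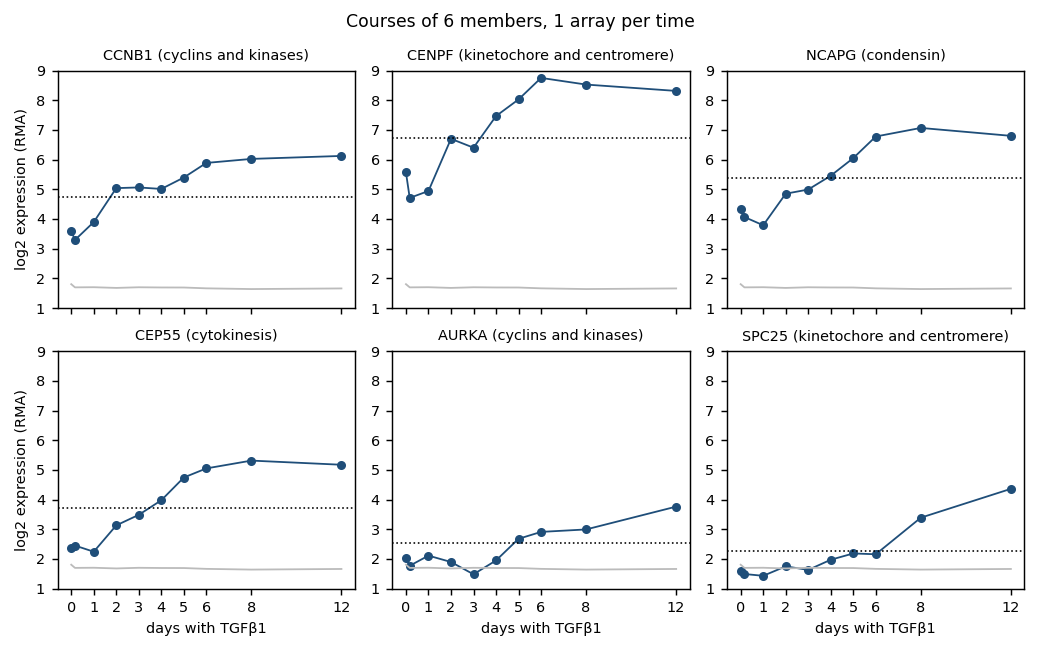
Log2 expression of 6 of the genes against days with TGFβ1, with 1 point per array. The dotted line marks the midpoint between the early and the late mean, and the grey line the lower quartile of all genes on each array. CCNB1 is above its midpoint from day 2, CENPF, NCAPG and CEP55 from day 4, AURKA from day 5 and SPC25 from day 8, with AURKA and SPC25 near the grey line before.

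Between the middle and the early window, 18 of the 46 genes rose and 0 fell, against 1.78% of all genes called higher, and the members' median difference was 0.85. TOP2A led at 1.85 (SE 0.26; limma, adjusted p = 0.00258), followed by CENPF at 1.78 (SE 0.29; limma, adjusted p = 0.00475) and CCNB1 at 1.44 (SE 0.20; limma, adjusted p = 0.00235). TPX2 had a difference of 1.28 (SE 0.16; limma, adjusted p = 0.00154), while AURKA stood at -0.20 (SE 0.24; limma, adjusted p = 0.708). By role, 4 of 4 spindle assembly genes passed, 2 of 2 of chromosome structure, 3 of 5 of the checkpoint and 2 of 5 of cytokinesis. So did 3 of 11 kinetochore genes, 2 of 9 cyclins and kinases, 1 of 4 of condensin, 1 of 3 other regulators and 0 of 3 passenger genes. NUF2 at 0.76 (limma, adjusted p = 0.0191) and NDC80 at 0.97 (limma, adjusted p = 0.0242) missed only the limit of 1. The roles were not tested against each other. The count of 18 fell to 9 without day 4 and to 2 with day 1 counted in the middle window.

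By single days, 0 members passed on day 2, where 0.0336% of all genes did, and 0 on day 3, where 0.0883% did, although 23 and 22 had an unadjusted p under 0.05 in limma, as did 13.2% and 12.8% of all genes. Each of these days is a single array, whose spread is assumed to be that of the early and late arrays, so that these calls have no replicate check of their own. Counts of 1 and 1 were reached without the untreated array and of 4 and 3 without day 1. On day 4, 10 members passed, against 0.395% of all genes. They were CENPF, TOP2A, TPX2, DLGAP5, CEP55, PRC1, ASPM, TTK, BUB1B and CCNB2. CENPF was then 2.39 (SE 0.35; limma, adjusted p = 0.0214) above the early mean and TPX2 1.59 (SE 0.20; limma, adjusted p = 0.017), while CCNB2, at 1.18 (SE 0.22; limma, adjusted p = 0.0499), only just passed. The day 4 count was 2 without 4 h, 4 without day 6 and 3 without day 8.

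After day 4 the rise went on. Between the late and the middle window 27 of the 46 genes rose and 0 fell, against 0.303% of all genes, or 72 in all, and the members' median difference was 1.30. SGO1 rose by 1.74 (SE 0.17; limma, adjusted p = 0.00456) and NUF2 by 1.71 (SE 0.16; limma, adjusted p = 0.00456) in this second part, while CCNB1, with 0.82 (SE 0.18; limma, adjusted p = 0.0955), and CCNA2, with 0.62 (SE 0.15; limma, adjusted p = 0.133), did not pass. This count rested on single arrays more than the others and was 2 without day 2, 2 without day 3, 6 without day 6, 3 without day 8 and 12 without day 12. Fitted as a course over time, on days and their square, 41 of the 46 passed, against 5.21% of all genes called higher, and SMC4, CDCA8, BIRC5, MAD2L1 and CENPA did not.

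Onset was taken for the 42 genes that rose as the first time from which a gene stayed at or above the midpoint between its early and late means. It thus marks the middle of the rise and not its first move. It also depends on the windows, since day 1 enters the early mean and day 5 the late mean. At 25% of the rise 6 of the 42 genes kept their onset day, and at 75% 5 did. Day 4 was the onset of 23 genes and day 5 of 16. CCNB1 alone had its onset on day 2, PLK1 alone on day 3 and SPC25 alone on day 8. Of 9 cyclins and kinases, onset lay on days 2 and 3 for 1 gene each, on day 4 for 3 (CDK1, CCNB2 and NEK2) and on day 5 for 4 (CCNA2, CDC25C, AURKA and PBK). Of 10 kinetochore genes, 3 had their onset on day 4 (CENPE, CENPF and CENPI), 6 on day 5 (NUF2, NDC80, SKA1, SKA3, SGO1 and SGO2) and 1 on day 8. Among the 4 condensin genes it was day 4 for 3 and day 5 for NCAPH, and among the 5 cytokinesis genes day 4 for 4 and day 5 for ECT2. All 4 spindle assembly genes and both genes of chromosome structure had their onset on day 4. The medians were thus day 4 for cyclins and kinases, condensin and cytokinesis and day 5 for kinetochore genes, a gap of 1 sampling step within groups that overlap, and it was not tested. The order changed with the setting. From the untreated array as baseline the medians were 5.0, 5.0 and 5.0 for those 3 groups and 4.5 for kinetochore genes, and without day 5 the median was 6.0 for cyclins and kinases, kinetochore and condensin genes alike.

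Without a threshold, the share of the early-to-late rise reached by each day gives the same courses in more detail. On day 2 the median share was 39.8% for cyclins and kinases, 29.4% for kinetochore genes, 25.2% for condensin and 28.5% for cytokinesis. On day 3 it was 45.0% for cyclins and kinases but 11.7% for condensin (1.03% to 19.0% with 1 array left out at a time), where SMC2, SMC4 and NCAPH were lower than on day 2, at 8.79% to 13.5%. On day 4 it was 52.5% for cyclins and kinases, 43.3% for kinetochore genes, 52.5% for condensin and 55.3% for cytokinesis. By day 5 these medians lay between 73.1% and 84.5%, and by day 6 between 98.6% and 108%. On day 4 the cyclins and kinases ran from -2.25% for AURKA to 62.6% for CCNB1, and the kinetochore genes from 26.8% for SGO1 to 71.8% for CENPF. On day 3 CDC25C had reached 71.0% and CDC20 69.8%, and both were lower again on day 4, at 48.2% and 42.6%. The ranges of the 4 groups overlapped on each of days 2, 3 and 4.

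**Figure D5:**
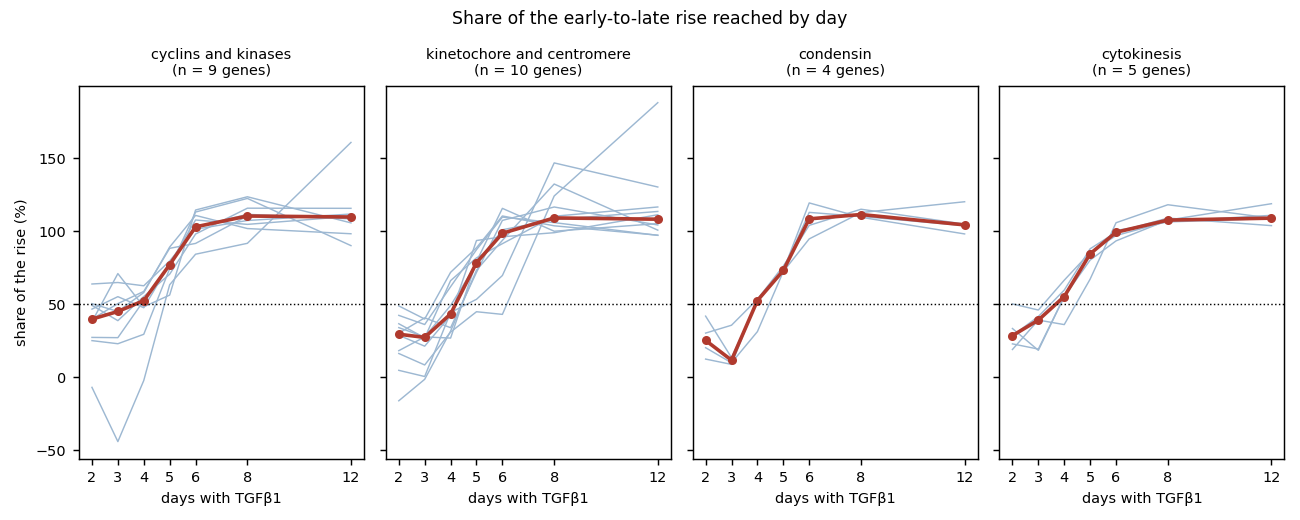
Share of the rise from the early to the late mean, in percent, reached on days 2 to 12 by the genes that rose in 4 roles (thin lines, 1 per gene) and their median (thick line with points). The dotted line marks 50%. Condensin falls to 11.7% on day 3, and all 4 medians lie between 43.3% and 55.3% on day 4.

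Other genes of the same machinery, listed by function, rose in smaller shares, read against the same 2.92% of all genes, and 0 fell in any of these lists. Of 27 other kinetochore and centromere genes, 5 rose and the median difference was 0.34, with KNL1, the scaffold for BUB1 and BUB1B, at 3.06 (SE 0.23; limma, adjusted p = 2.05e-05), HJURP, the chaperone of CENPA, at 1.74 and CENPK at 1.48. Of 17 other condensin, cohesin and separase genes, 3 rose (median 0.13), all of condensin. These were NCAPD2 of condensin I at 1.67, and NCAPG2 and NCAPD3 of condensin II at 1.61 and 1.02. The cohesin core genes SMC1A, SMC3 and RAD21, named after their values were seen, stood at 0.13, -0.13 and 0.12 and did not pass.

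Of 10 other cytokinesis genes, 3 rose (median 0.08), with CIT, the citron kinase of the midbody, at 2.45 (SE 0.19; limma, adjusted p = 2.71e-05), MYH10, a non-muscle myosin heavy chain, at 1.20 and RACGAP1, the midzone partner of ECT2, at 1.00. Of 15 other spindle and centrosome genes, 8 rose and the median was 1.17. CKAP2L stood at 2.47, STIL at 1.86 and PLK4, the kinase of centriole duplication, at 1.84. Of 12 other regulators of CDK1, 2 rose (median 0.19), GTSE1 at 1.68 and BORA, a cofactor of AURKA, at 1.11. At an unadjusted p under 0.05, 28.3% of all genes differed between these windows. None of 18 genes of the anaphase-promoting complex and its partners, such as UBE2C, passed in limma (0 genes, with 7 at an unadjusted p under 0.05, median 0.08). None of 19 DREAM, RB and E2F factors passed in limma (0 genes, with 6 at an unadjusted p under 0.05, median -0.05). Some missed only the limit of 1. Highest in each list, and named after their values were seen, were UBE2C at 0.96 (limma, adjusted p = 0.0117) and RBL1 at 0.98 (limma, adjusted p = 0.00179). Of 37 genes of DNA replication and S phase, 1 rose (median 0.15), RRM2, a subunit of ribonucleotide reductase, at 1.73 (SE 0.33; limma, adjusted p = 0.0048). The difference was above 0 in 31 of these 37, against 9671 of all 23786 genes. Among those that missed only the limit of 1 were POLA2 at 0.997, RRM1 at 0.97 and PRIM1 at 0.95, named after their values were seen. Whether the members differ from these lists was not tested.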

How the data were processed

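RNA of 10 cultures or pools of MCF10A cells, 1 per time point, was measured on whole-transcript arrays. The authors deposited log2 values made by RMA (background corrected, quantile normalized, and summarised by median polish with probes mapped to Entrez genes), which were used as deposited, low values included. Quantile normalization sets all arrays to nearly the same distribution, so the values hold changes relative to the other genes. An NCBI table matched Entrez identifiers to symbols (23093 genes named, 693 not). All 23786 genes were fitted in R 4.3.3 with limma 3.58.1 (window means, or a term for each of days 2, 3 and 4, with empirical Bayes moderation), and called at a log2 difference of 1 or more with a p of 0.05 or less after Benjamini-Hochberg adjustment over the whole table. In the fit by day, the lone arrays are assumed to vary like those of the early and late windows. For the course over time, the F test of days and days squared was used, and calls also needed R2 of 0.6 or more and a change of 1 log2 or more from untreated cells on some array. The median residual SD was 0.200 over all genes and 0.325 over the members. The script for the tests was tried on simulated data. Plots were made with matplotlib 3.10.9 (Python 3.11.15). The members, their roles and the other lists were chosen with earlier results of these data known. Named in every array are the members with the largest and the smallest difference in each role and all members of condensin and chromosome structure. Of each other list, up to 3 called genes with the largest difference are named. Of the listed genes, 3 outside the 46 could not be found in the table by symbol and are not analysed here. Alternatives tried were leaving out each array, centring each array on its median, a filter on low genes, trended and robust moderation, no limit on the difference, other windows, baselines and thresholds for onset, a log scale of time and a shorter promoter window.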

Additional observations from a re-analysis of the deposited data

Results flagged for a closer look

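In each member's 4 late values, the highest or the lowest was compared with the others by its gap to the nearest value over the whole range. Of 46 sets tested, 4 (8.70%) held a value beyond Dixon's critical ratio at the 95% level, and chance marks about 1 in 20. In all 4 the day 5 array was the low one. CCNA2, the cyclin of S phase and early mitosis, was at 5.97 on day 5, against 6.30 to 6.37 on days 6, 8 and 12, and CDCA8, of the passenger complex, at 3.17 against 3.32 to 3.35. HMMR was at 6.00 on day 5, against 6.77 to 6.80, and ASPM at 7.06, against 7.62 to 7.71. These arrays are different times and not replicates, and all 46 sets come from the same ones. The flagged share therefore cannot be compared with the 1 in 20 of chance.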

How the results depend on the processing

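Of the 42 members that rose between the early and the late window, 37 passed under every alternative that tested them, and SPC25, SKA1, SMC4, ECT2 and AURKA did not, as given in the report. The filter on low genes left out 6 members, among them 4 of the 42 (AURKA, SPC25, SKA1 and SKA3), so that 38 were called under it and 36 were both tested and called under every alternative. SPC25 also missed the limit with day 1 moved to the middle window (limma, adjusted p = 0.064). No member's difference between windows changed sign where it passed in the main fit or in the alternative. Sign changes of members that passed in neither were not counted, and the order of the median onsets did change. With 1 array left out at a time, the count of members called higher ran from 9 to 18 for middle against early, 2 to 31 for late against middle, 0 to 4 on day 2, 0 to 3 on day 3 and 2 to 12 on day 4, with fewer arrays in each fit. With day 1 in the middle window, 2 members passed for middle against early. At 1.5 log2, 0 members were lower at 4 h and 0 on day 1, and at 4 h it was also 0 with arrays centred on their medians and 0 against the mean of untreated cells and day 1. The median onset of cyclins and kinases, kinetochore, condensin and cytokinesis genes was day 5.0, 4.5, 5.0 and 5.0 with the untreated array as baseline, day 2.0, 2.5, 4.0 and 3.0 at 25% of the rise, and day 5.0, 5.0, 6.0 and 5.0 at 75%. Taken at the first time above the midpoint whatever followed, it was day 3.0 for cyclins and kinases. With 1 array left out it ran from day 4.0 to 6.0 for cyclins and kinases, 4.5 to 6.0 for kinetochore, 4.0 to 6.0 for condensin and 4.0 to 5.0 for cytokinesis genes. With an array left out, an onset on that array has to move to another sampled time. Leaving out an early or late array also changes that window's mean and so the midpoint. Beyond this and the smaller number of arrays, the cause of these shifts was not tested. No paired analysis was possible because no time point has a replicate and each group holds a single array. In the window from 150 bases before the start, 30 of 40 genes held a CHR match, against 12.43% of all genes.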
